A study of Mus musculus with 26 samples.

Results

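The genes that encode the proteins of the cytosolic ribosome were followed through 5 experiments on the retina of rd10 mice, a strain that loses its rods through a mutation in the rod phosphodiesterase gene Pde6b. Members were chosen by name alone: every gene whose symbol began with Rpl, Rps or Rplp and went on with a number and at most a short ending, which gave 81 of the 37991 genes counted. They comprised 42 genes of the large subunit, 30 of the small subunit, 3 of the P-stalk (Rplp0, Rplp1 and Rplp2) and 6 paralogs (Rpl3l, Rpl7l1, Rpl10l, Rpl22l1, Rpl39l and Rps27l). Ribosome components whose symbols lie outside the naming pattern, such as Rpsa and Gnb2l1, were not members. Rpl41 was not analysed here.

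Polyadenylated RNA of whole retinas was sequenced at PN24 after injections that began at PN9. Groups were 4 control and 2 DZNep retinas (1 to 1.5 mg/kg) and 3 control and 3 UNC1999 retinas (15 mg/kg). There were also 2 control and 2 UNC0642 retinas (7.5 mg/kg) and 3 control and 3 Romidepsin retinas (0.2 mg/kg). All were of the genotype B6.CXB1-Pde6brd10/Jrd10, and each experiment had its own controls. The remaining experiment compared 2 control and 2 GSK2879552 samples (4.2 mg/kg) of rods sorted by FACS. They came from a line that combines rd10 with B6.Cg-Tg(Nrl-EGFP)1Asw/J, in which the Nrl promoter drives a green fluorescent protein in rods. Mice of this line were likewise injected from PN9 and taken at PN24. DZNep and UNC1999 inhibit the H3K27 methyltransferase EZH2, UNC0642 the H3K9 methyltransferases EHMT2 and EHMT1, Romidepsin histone deacetylases, and GSK2879552 the demethylase LSD1. Controls were given saline, the diluent of the other inhibitors. UNC1999 was dissolved in a mixture with DMSO, and the study describes its controls both as saline and as diluent alone. The labels call the replicates biological, and do not say whether retinas were pooled.

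Ribosomal proteins are made in nearly equal numbers, and with the ribosomal RNAs they form the small subunit, which reads the mRNA, and the large subunit, which joins amino acids. Most of their mRNAs start with a C followed by a run of pyrimidines, the terminal oligopyrimidine (TOP) motif, through which LARP1 and the kinase complex mTORC1 set their translation together. The genes have left many processed copies in the mouse genome, and mutations in several of them, RPS19 first, cause Diamond-Blackfan anaemia through p53. Photoreceptors renew their outer segments every day and so depend on steady protein synthesis.

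The start of the RNA is shown for 5 members with a long pyrimidine run at the start site and for 3 without one, because the family is known for this run. Windows from RefSeq (GRCm38.p6) hold 10 bases before and 20 bases from the start on, and capitals mark the unbroken run of C or T.
Rplp2, chr7:141447641-141447670, plus strand: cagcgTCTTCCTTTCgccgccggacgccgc
Rps6, chr4:86857348-86857377, minus strand: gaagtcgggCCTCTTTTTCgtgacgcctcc
Rps27, chr3:90213629-90213658, minus strand: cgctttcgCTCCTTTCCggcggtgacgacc
Rpl27a, chr7:109519185-109519214, plus strand: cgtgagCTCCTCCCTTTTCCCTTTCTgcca
Rpl22l1, chr3:28805498-28805527, plus strand: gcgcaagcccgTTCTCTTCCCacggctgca
Rplp0, chr5:115559457-115559486, plus strand: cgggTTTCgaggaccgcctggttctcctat
Rpl5, chr5:107900518-107900547, plus strand: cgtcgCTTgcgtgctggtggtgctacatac
Rps16, chr7:28350679-28350708, plus strand: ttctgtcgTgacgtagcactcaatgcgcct
Rplp2, Rps6, Rps27, Rpl27a and Rpl22l1 carry the run at or within a few bases of the annotated start, while Rplp0, Rpl5 and Rps16 have only short runs there. The annotated start of a gene can lie some bases from the one used in the retina, so the absence of a run says only that these letters are not in this window.

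A run of at least 7 pyrimidines, on the strand of the gene, that overlapped the stretch from 3 bases before to 3 bases after an annotated start was found in 26 of the 61 members with a promoter in the RefSeq table (42.6%). The same rule found it in 3352 of all 27025 genes (12.4%), in 10.9% of 64 genes of mitochondrial ribosomal proteins, in 12.3% of 65 nuclear genes of oxidative phosphorylation and in 4 of 13 other genes of the TOP class (30.8%). Its longest member run was 21 bases. Median log2 fold changes of members with and without a run were 0.40 and 0.40 after UNC0642, 0.23 and 0.29 after Romidepsin, 0.03 and 0.09 after DZNep, −0.09 and −0.04 after UNC1999, and −0.54 and −0.39 in GSK2879552-treated rods (25 members with and 33 without a run).

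In control retinas the P-stalk gene Rplp1 was the most abundant member per kilobase of all annotated exons of a gene, with 475 ± 102 CPM per kilobase (SD, n = 12), where CPM is the count scaled to the size of the library. Rpl8, near the peptidyl transferase centre, followed with 328 ± 47.5, and Rpl4, which lines the exit tunnel, with 314 ± 33.9 CPM per kilobase. Rpl8 and Rpl4 differed by less than the spread between libraries, and Rplp1 ranged from 356 to 638 CPM per kilobase. At the other end Rpl10l, the testis copy of Rpl10, had 0 counts in every library, Rpl39l at most 2 and the muscle gene Rpl3l at most 16 counts, and these 3 paralogs were left out of all tests. The least abundant of the 78 members tested was Rps27l, at 12.4 ± 3.13 CPM per kilobase. With the length of a single annotated transcript in place of all exons, Rplp1 stayed at 475 and Rps27l was lowest again at 17.7, and Rps15, named after its value was seen, came second at 349 ± 41.7 CPM per kilobase.

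Members took between 0.748% and 1.48% of all counts in the 22 retina libraries and between 0.187% and 0.281% in the 4 libraries of sorted rods. Rods and retinas were made with different library kits, so cell type and kit cannot be told apart in this difference. The order of members also differed, with Rpl4 at 141, Rplp0 at 78.6, Rpl10a at 78.5 and Rplp1 at only 26.0 CPM per kilobase of exons in control rods. Per kilobase of a single transcript Rpl10a (194) lay above Rpl4 (141) and Rplp0 (96.0). Rod markers summed to 45829 to 71047 CPM in the sorted cells, against 7335 to 58863 CPM in the retinas.

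**Figure D1:**
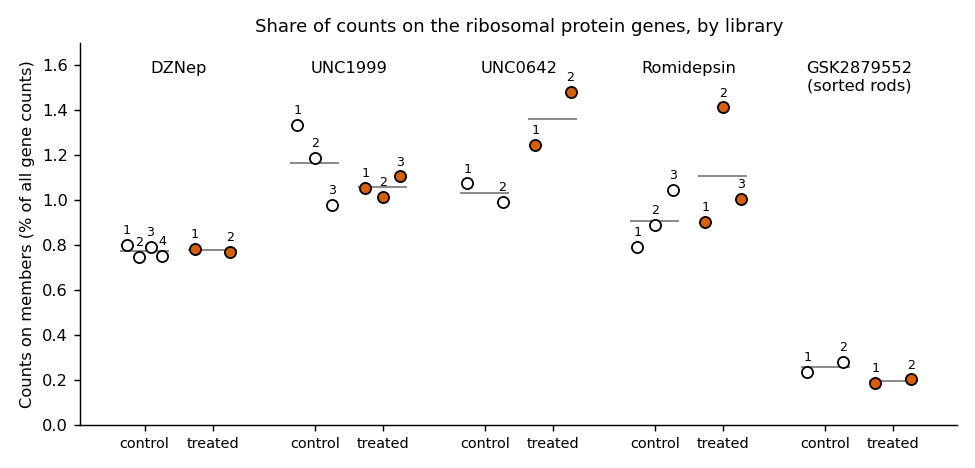
Counts on the 81 ribosomal protein genes as a percentage of all counts on genes, for every library of the 5 experiments (white, control; orange, treated; numbers, replicates; lines, group means). The 2 UNC0642 retinas, at 1.24% and 1.48%, lie above their controls, Romidepsin replicate 2 stands at 1.41% above the other 2 Romidepsin retinas, and the 4 rod libraries all lie below 0.3%.

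Between 13732959 and 36354094 reads were counted on genes per retina and between 7289460 and 19864491 per rod library, so that 3 counts correspond to 0.083 to 0.412 CPM. Counts were compared with edgeR's quasi-likelihood test, adjusted by Benjamini-Hochberg over all genes tested, and members with an adjusted p-value under 0.05 were called. Fold changes are treated over control on the log2 scale. No member was both called and changed by more than 1 on the log2 scale in any comparison of treatment and control. DZNep replicate 2 held 58.4 CPM of lens transcripts, against at most 3.57 CPM in the other retinas. In whole retinas fewer cells of a type and less RNA per cell cannot be told apart.

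After DZNep the ribosomal protein genes moved little, and a group of them rose. Of 78 members 61 had a log2 fold change above 0 (49.9% of all genes) and 17 one below 0. The median over the 78 members was 0.07 (interquartile range 0.005 to 0.18), against −0.001 over all 16477 genes. By the test 19 members rose and 1 fell, beside 12.9% of all genes called higher and 9.72% called lower. Both DZNep retinas lay above all 4 controls for 30 members (24.4% of all genes) and below them for 3, Rps15a, Rpl10 and Rpl27a (21.5% of all genes), the last named after its value was seen.

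Rpl10a (chromosome 17 from 28465416 to 28467977 in NCBIM37), a protein of the L1 stalk of the large subunit, had the smallest p-value. It measured 136, 126, 133 and 120 CPM in the controls and 185 and 169 CPM after DZNep, a log2 fold change of 0.46 (SE 0.060, adjusted p = 0.0015). Both treated retinas were above every control. Rpl9 measured 134, 127, 136 and 129 CPM in the controls and 163 and 167 CPM after treatment (0.33, SE 0.044, adjusted p = 0.0017), and Rpl8 250, 238, 255 and 227 CPM and 303 and 299 CPM (0.31, SE 0.054, adjusted p = 0.0048). Neither overlapped between the groups. Rpl5, which with Rpl11 and 5S RNA restrains the p53 ligase Mdm2, rose by 0.22 (adjusted p = 0.0078) from 123, 118, 121 and 116 to 141 and 138 CPM, while Rpl11 stood at 0.03 and its groups overlapped.

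In the small subunit 10 genes rose, among them Rps20 (0.33), Rps2 (0.32), Rps15 (0.26) and Rps19 (0.24), of which Rps2 and Rps15 were picked after their values were seen. Rps19, the gene most often mutated in Diamond-Blackfan anaemia, went from 68.5, 61.8, 63.6 and 63.9 CPM to 77.1 and 74.8 CPM (adjusted p = 0.014). Rps15a was the member that fell, by 0.17 on the log2 scale (SE 0.046, adjusted p = 0.033), from 116, 120, 114 and 121 to 107 and 102 CPM. Its annotated transcript of 5130 bases is the longest of the family, which otherwise has a median of 860 bases. The phosphoprotein Rps6 (0.05) and the ubiquitin fusion Rps27a (−0.09; 72.4 and 47.9 CPM after treatment around controls of 60.6 to 69.0) did not pass the test.

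None of the 3 P-stalk genes passed the test, with Rplp0 at 0.06, Rplp1 at 0.11 and Rplp2 at 0.10. Pairs of a gene and its paralog went apart in that Rpl7 (0.21) and Rpl22 (0.17) rose while Rpl7l1 (−0.01) and Rpl22l1 (0.003) did not pass the test, a difference between the pairs that was not tested. Rpl3 (0.04), Rpl10 (−0.14), Rpl39 (0.04), Rps27 (0.12) and Rps27l (−0.10) did not pass either.

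The count of members called changed with single libraries: it was 10 without control replicate 2 and 13 without control replicate 4. Without either DZNep replicate only 1 treated retina remains, and the calls of those fits are not listed here. Against all 9 control retinas of the same library series the median was −0.07, with 22 of 78 members higher and 1 called (Rps15a, lower), and Rps19 stood at −0.01. Shares of all genes called or higher in these fits are not given here, so the counts are not read as particular to the members.

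Genes of related lists were called in both directions, and their counts stand beside the 12.9% of all genes called higher and the 9.72% called lower. Gnb2l1, the scaffold RACK1, rose by 0.30 and the laminin receptor Rpsa by 0.18. Of 19 further TOP genes 5 rose, including Eif3e (0.29) and Eif3f (0.28), and 2 fell, Eef1b2 (−0.25) and Eif4a2 (−0.19). Among 41 genes of ribosome biogenesis 6 rose, such as the polymerase I subunit Polr1a (0.36) and the helicase Ddx21 (0.28), with a median of 0.03. Of 17 regulators of TOP translation the S6 kinase Rps6kb1 (0.28) and Larp4 (0.20) rose and the mTORC1 target Eif4ebp1 fell by 1.05. Of 17 genes in a list of p53 and its targets 3 rose, among them Sesn1 (0.34) and Btg2 (0.30). A further 3 fell, among them Phlda3 (−0.57) and the p53 gene Trp53 (−0.47). Of 72 mitochondrial ribosomal protein genes 1 rose and 4 fell, with a median of 0.005. In the same retinas all 8 rod markers rose (median 1.23) and all 5 Müller glia markers fell (median −0.37), and their part in the result was not tested.

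**Figure D2:**
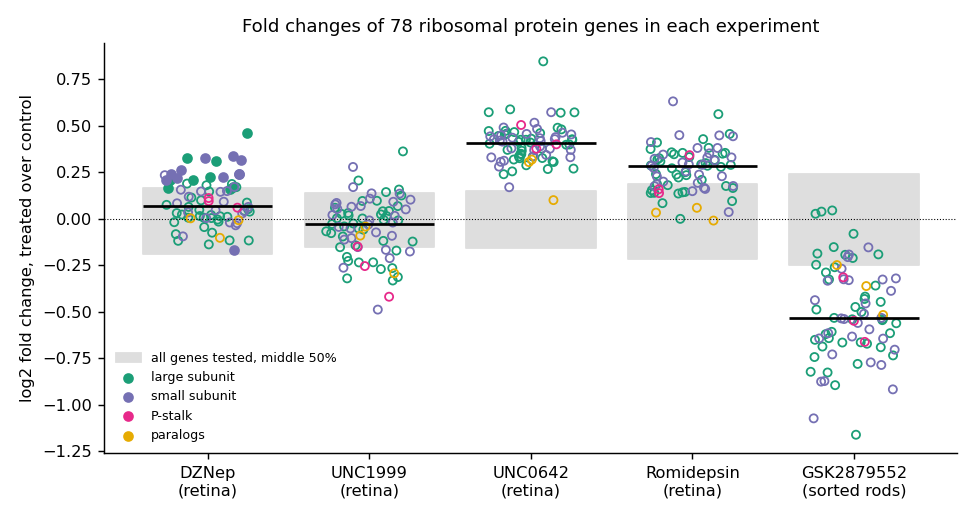
Log2 fold changes (treated over control) of the 78 members tested, by role, in the 5 comparisons. Filled points passed the test at an adjusted p-value under 0.05. Members lie around 0 after DZNep and UNC1999, above 0 after UNC0642 (78 of 78) and Romidepsin (77 of 78), and below 0 in GSK2879552-treated rods (75 of 78).

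After UNC1999, the other EZH2 inhibitor, the ribosomal protein genes lay close to their controls. Of 78 members 33 were higher (49.6% of all genes) and 45 lower, with a median of −0.03 (interquartile range −0.15 to 0.06). By edgeR's quasi-likelihood test 0 were called, beside 0.501% of all genes higher and 0.101% lower, and 3 members were higher and 3 lower at an unadjusted p under 0.05, beside 11.8% and 11.9% of all genes. The likelihood ratio test and DESeq2 called 1 member each, Rpl10a in both. Groups did not overlap for 2 members, Rps14 and Rps15, both higher (13.9% of all genes).

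Rpl10a, which like Rps14, Rps15 and Rps2 is named here after its value was seen, had the highest fold change of the members: 184, 151 and 152 CPM in the controls and 234, 181 and 211 CPM after UNC1999, a log2 fold change of 0.36 (SE 0.11, adjusted p = 0.11). One control, replicate 1, lay above the lowest treated retina. Rps15, with 196, 171 and 164 CPM against 235, 200 and 208 CPM (0.28, adjusted p = 0.12), did not overlap between groups.

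The lowest values were those of Rps2, with 265, 194 and 134 CPM in the controls and 143, 137 and 143 CPM after treatment (−0.49, adjusted p = 0.21), and of the stalk base Rplp0, with 406, 343 and 246 CPM against 244, 244 and 256 CPM (−0.42, adjusted p = 0.17). In both genes the controls spread over a wider range than the treated retinas, and control replicate 3 lay at the level of the treated ones. Rplp1 (−0.15) and Rplp2 (−0.25) had means below their controls too.
With control replicate 3 left out 15 members were called lower and the median was −0.13. The share of all genes called in that fit is not given here. The median was 0.07 when control replicate 1 was left out, 0.02 when UNC1999 replicate 2 was and 0.03 with offsets for length and GC content. Rpl5 (0.003), Rpl11 (−0.12), Rps6 (0.07), Rps19 (−0.09), Rps27a (0.11), Rpl3 (−0.06), Rpl7 (0.10), Rpl10 (−0.31), Rpl22 (0.03), Rpl39 (−0.26), Rps27 (0.05), Rpl7l1 (−0.04), Rpl22l1 (−0.09) and Rps27l (−0.29) did not pass the test. All 5 markers of the retinal pigment epithelium (RPE) rose (median 1.75), and their part in these values was not tested.

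UNC0642 gave the most uniform shift. All 78 members had a higher mean in the UNC0642 retinas (49.7% of all genes). Their median log2 fold change was 0.41, with an interquartile range from 0.33 to 0.45, against −0.001 over all 16321 genes. Both treated retinas lay above both controls for 76 members, beside 26.9% of all genes. The shift ran through every role: 42 of 42 large subunit genes (median 0.41), 30 of 30 small subunit genes (0.42), 3 of 3 P-stalk genes (0.40) and the 3 paralogs tested (0.31) were higher.

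With 2 retinas a group 0 members passed edgeR's quasi-likelihood test, as did 0 of all 16321 genes (0% of all genes), and the smallest adjusted p of a member was 0.299. At an unadjusted p under 0.05 there were 74 members higher and 0 lower, beside 7.95% of all genes higher. The likelihood ratio test called 16, DESeq2 44 and the quasi-likelihood test without a filter on low counts 63 members, all higher. Shares of all genes called under these settings are not given here, so these counts are not read as particular to the members.

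Rpl23a (chromosome 11 from 77994434 to 77997086), at the mouth of the exit tunnel, was highest with 48.6 and 42.0 CPM in the controls and 69.4 and 94.0 CPM after UNC0642 (0.85, SE 0.16). Rps16 measured 93.4 and 90.8 CPM and 119 and 129 CPM (0.43, SE 0.075), and the decoding centre protein Rps23 63.8 and 61.1 CPM and 82.1 and 93.5 CPM (0.49, SE 0.089). In each of these 3, named here after seeing their values, both treated retinas lay well above both controls. Rpl23a was also the member called when control replicate 1 was left out.

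The P-stalk moved with the rest. Rplp1 measured 329 and 304 CPM in the controls and 411 and 487 CPM after treatment (0.50), and Rplp0 378 and 344 CPM and 445 and 493 CPM (0.38), with Rplp2 at 0.40. UNC0642 replicate 2 was the higher of the treated retinas in each of these genes. Rps6 measured 101 and 95.6 CPM and 112 and 133 CPM (0.31). Rpl5 (0.31), Rpl11 (0.37), Rps19 (0.43), Rps27a (0.31) and Rpl10a (0.38), the last named after its value was seen, were alike in size.

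Rpl22l1, the paralog that can stand in for Rpl22, was the lowest member, with 28.0 and 26.2 CPM against 31.5 and 26.4 CPM (0.10), and its groups overlapped. Its partner Rpl22 was at 0.27. The other member whose groups overlapped was Rps2, at 0.34, named here after its value was seen. The remaining genes of the pairs lay between Rpl22l1 and the median of the members. Rpl3 was at 0.26, Rpl7 at 0.29 and Rpl7l1 at 0.31, Rpl10 at 0.24, Rpl39 at 0.33, and Rps27 at 0.33 and Rps27l at 0.32.

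Genes of several other lists, inside and outside the ribosome pathway, lay on the same side. Beside 49.7% of all genes, 41 of 41 genes of ribosome biogenesis were higher (median 0.30), as were 17 of 19 further TOP genes (0.22), 71 of 72 mitochondrial ribosomal protein genes (0.21) and 75 of 78 nuclear genes of oxidative phosphorylation (0.24). Regulators of TOP translation did not share this direction, with 6 of 17 higher (median −0.04), nor did p53 and its targets, with 9 of 17 higher (0.02). None of these genes was called. The controls of this experiment had fewer rod transcripts than all other control retinas (7335 and 7442 CPM against 12909 to 31377 CPM), 5 of 5 RPE markers were higher (1.05) and 0 of 6 microglia markers (−0.70), and the part of these in the shift was not tested.

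Romidepsin gave a shift of the same sign that was uneven between retinas. Of 78 members 77 had a higher mean (48.9% of all genes), with a median of 0.28 (interquartile range 0.18 to 0.34), against −0.009 over all 16049 genes. By edgeR's quasi-likelihood test 0 were called, beside 0.573% of all genes called higher and 0.174% lower, and 8 members were higher at an unadjusted p under 0.05, beside 9.92% of all genes. The likelihood ratio test called 0 and DESeq2 1 member, Rpl10a. Only Rpl9 and Rpl10a did not overlap between groups, 2 of 78 beside 13.5% of all genes.

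Rps27a had the highest fold change, with 68.4, 56.7 and 83.1 CPM in the controls and 83.1, 137 and 102 CPM after Romidepsin (0.63, SE 0.21, adjusted p = 0.14). Treated replicate 1 was level with the highest control. Rpl10a measured 134, 143 and 175 CPM and 178, 266 and 223 CPM (0.56, adjusted p = 0.12), and Rpl9 134, 142 and 161 CPM and 176, 227 and 185 CPM (0.43, adjusted p = 0.14). In each of these 3 genes, of which Rpl10a and Rpl9 are named after their values were seen, Romidepsin replicate 2 was the highest of the 6 retinas.

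Large and small subunit genes were all higher, 42 of 42 and 30 of 30, with medians of 0.28 and 0.29. Rps19 (0.41), Rpl5 (0.35), Rpl7 (0.35), Rplp2 (0.34), Rpl22 (0.32) and Rpl11 (0.29) lay above or near the median, and Rpl3 (0.24), Rps6 (0.23), Rps27 (0.20), Rplp1 (0.16), Rplp0 (0.14), Rpl39 (0.14) and Rpl10 (0.10) below it. The 3 paralogs were close to 0, at 0.06 for Rps27l, 0.03 for Rpl7l1 and −0.01 for Rpl22l1. Rps15a, which fell after DZNep and is named here after its value was seen, was the lowest small subunit gene here (0.04) and after UNC0642 (0.17).

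The size rested on Romidepsin replicate 2, since without it the median was 0.07 and 57 of 78 members were higher. Of related genes, 17 of 19 further TOP genes (median 0.22) and 34 of 41 biogenesis genes (0.11) were higher, while mitochondrial ribosomal proteins (43 of 72, 0.06) and oxidative phosphorylation (40 of 77, 0.02) divided almost evenly. Btg2, an antiproliferative p53 target, was the gene of these lists that passed the test (0.68, adjusted p = 0.034). All 8 rod markers were higher (0.53) and 0 of 6 cone, 0 of 5 Müller glia and 0 of 5 bipolar cell markers were, and their part was not tested.

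Ribosomal protein genes are short, with a median transcript of 860 bases against 3019 bases for the genes tested. Length here is that of the longest annotated protein-coding transcript of a gene, and the transcript used in the retina was not examined. In 3 experiments the fold changes of all genes went with length. Over the other genes Spearman's rho of log2 fold change with transcript length was −0.38 after UNC0642 (n = 14663 genes), −0.20 after Romidepsin (n = 14479) and 0.21 in GSK2879552-treated rods (n = 12580), and 0.007 after DZNep and 0.05 after UNC1999. Genes of 1 library share its depth and fragmentation, so these values are descriptions. Among the members themselves rho was −0.37 after UNC0642 and 0.08 after Romidepsin (n = 78).

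Within the following classes of longest annotated transcript, the members had higher medians than the other genes. Whether members and other genes of a class were alike in the length of the RNA in the retina was not tested. After UNC0642 the 748 other genes of 500 to 1000 bases had a median of 0.21 and the 41 members 0.40. From 1000 to 2000 bases the values were 0.10 for 3004 other genes and 0.40 for 19 members. After Romidepsin they were 0.07 for 723 other genes and 0.29 for 41 members in the shorter class, and 0.06 and 0.29 in the longer one.

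When length and GC content were fitted as offsets in every library, the trend of other genes with length fell away (rho −0.03 after UNC0642 and 0.01 after Romidepsin). Among the members rho was then 0.45 after UNC0642 and 0.38 after Romidepsin, so that members with longer annotated transcripts had the higher values. The median of the members was then 0.25 after UNC0642, with 77 of 78 higher, and 0.19 after Romidepsin, with 76 of 78 higher. For UNC0642 the value moved from 0.41 to 0.25, and 0 members were called in either fit. For Romidepsin 5 members were called with the offsets, Rps27a, Rpl9, Rpl10a, Rps14 and Rps24, the last 2 named after their values were seen. That count stands without the share of all genes called, which is not given here. Offsets for length alone, chosen after the data were seen, gave medians of 0.26 and 0.20. How the RNA or libraries of single retinas came to differ in length was not tested.

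**Figure D3:**
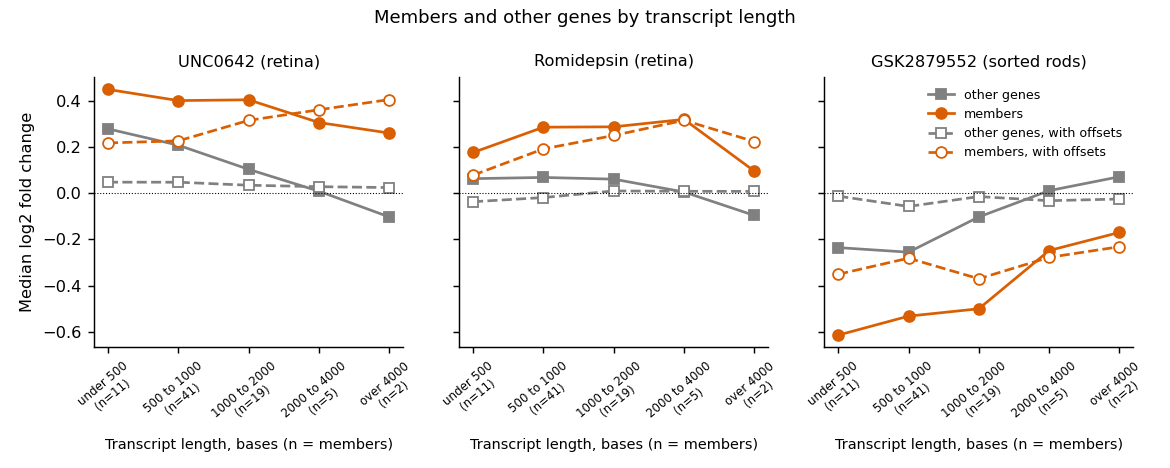
Median log2 fold change by class of transcript length (bases) for the ribosomal protein genes and for all other genes, in the comparisons with a trend, with and without offsets for length and GC content. From 500 to 1000 bases members lie above the other genes after UNC0642 (0.40 against 0.21) and Romidepsin (0.29 against 0.07) and below them in GSK2879552-treated rods (−0.53 against −0.26).

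The trend was steep in single libraries. For each retina the slope of the other genes on length was taken against the mean of all 22 retinas, as the log2 change per doubling of length. Romidepsin replicate 2 had the steepest slope (−0.26) and its members lay 0.47 above the mean. UNC0642 replicate 2 followed with a slope of −0.15 and members at 0.53. Romidepsin control 3 had the third slope (−0.097) with members at 0.06, and UNC0642 replicate 1 the fourth (−0.073) with members at 0.26. In UNC1999 control 1 the slope was −0.005 and the members lay at 0.38. It belongs to library series H-50, in which all 6 libraries had members above the mean of the 22 retinas, and within that series it had the lowest slope and the highest members.

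**Figure D4:**
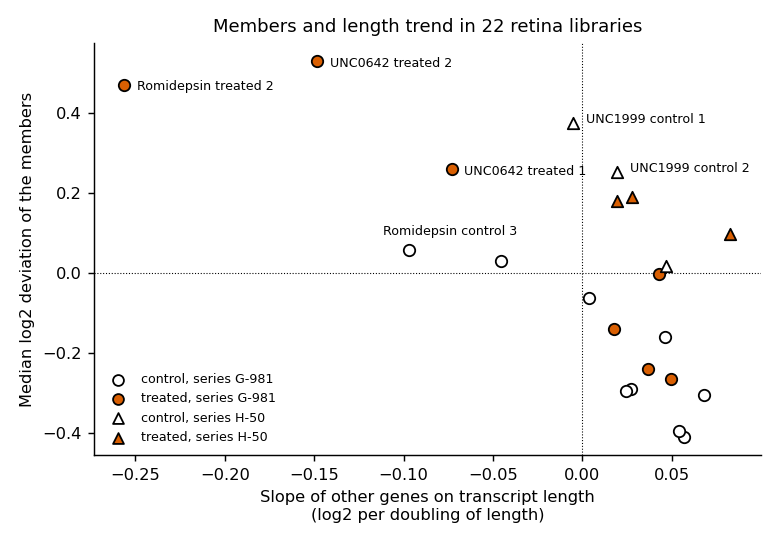
Slope of all other genes on transcript length (log2 per doubling) against the median log2 deviation of the ribosomal protein genes, both relative to the mean of the 22 retinas (circles, library series G-981; triangles, series H-50; orange, treated). Romidepsin replicate 2 and UNC0642 replicate 2 lie at the upper left, at slopes of −0.26 and −0.15, and all 6 libraries of series H-50 lie above 0, with UNC1999 control 1 at a slope of −0.005 and members at 0.38.

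In rods sorted after GSK2879552 the ribosomal protein genes had lower means than in control rods. Of 78 members 75 were lower (51.2% of all genes), with a median of −0.53 (interquartile range −0.66 to −0.33), and both treated samples lay below both controls for 50, beside 17.3% of all genes. Again 0 members and 0 of all 14478 genes passed edgeR's quasi-likelihood test (0% of all genes). The likelihood ratio test and DESeq2 also called 0 members, and 10 members were lower and 0 higher at an unadjusted p under 0.05, beside 2.13% of all genes lower.

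Rpl37a measured 8.43 and 10.5 CPM in control rods and 4.06 and 4.44 CPM after GSK2879552 (−1.16, SE 0.39), and Rps10 16.7 and 11.8 CPM and 6.71 and 6.76 CPM (−1.07, SE 0.36). More abundant was Rps3, with 72.5 and 102 CPM against 48.6 and 52.6 CPM (−0.79, SE 0.24, adjusted p = 0.89). In these 3 genes, named after their values were seen, the treated rods lay below both controls. Rps27a was at 29.3 and 26.6 CPM and at 16.3 and 16.4 CPM (−0.77), also without overlap, and Rps6 at 34.5 and 44.4 CPM and at 28.5 and 25.8 CPM (−0.54).

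The 3 members that were not lower were Rpl10a (220 and 149 CPM against 165 and 216 CPM, 0.05), Rpl22 (0.03) and Rpl31 (0.04), the first and last named after their values were seen. Rplp0 had 104 and 157 CPM against 110 and 100 CPM (−0.31) and overlapped between groups, with Rplp1 at −0.66 and Rplp2 at −0.55. Values of Rpl5 (−0.19), Rpl11 (−0.19), Rps19 (−0.45), Rpl3 (−0.54), Rpl7 (−0.61), Rpl10 (−0.43), Rpl39 (−0.78), Rps27 (−0.70), Rpl7l1 (−0.25), Rpl22l1 (−0.36) and Rps27l (−0.52) came with adjusted p-values of 0.89 or more.

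The size rested on control replicate 2, in which members took 0.281% of counts. Without it the median was −0.28 with 15 of 78 members higher, and with offsets for length and GC content it was −0.31 with 10 higher. Mitochondrial ribosomal proteins (65 of 72 lower, −0.27) and oxidative phosphorylation (70 of 75 lower, −0.38) lay on the same side, and biogenesis genes were nearer 0 (25 of 41 lower, −0.05). Rod markers were even (4 of 8 higher, −0.006), 0 of 6 cone markers (−0.78) and 4 of 5 Müller glia markers (0.43) were higher, and their part was not tested.

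The treatments were also compared with each other, as the difference of their effects in a fit of the 22 retinas. By edgeR's quasi-likelihood test 0 members were called in any of the 3 differences, and the likelihood ratio test and DESeq2 called 0 as well. Of all 17274 genes 0% were called higher for DZNep less UNC1999 and for Romidepsin less UNC0642, with 0.00579% and 0.0174% called lower, and 0.127% and 0.162% were called higher and lower for Romidepsin less DZNep. The effects in the experiments with the 2 inhibitors of EZH2 differed by a median of 0.14 (DZNep less UNC1999, 67 of 78 members above 0, 54.5% of all genes). DZNep retinas belong to library series G-981 and UNC1999 retinas to series H-50, so inhibitor and series cannot be told apart here. Rps2, named after its value was seen, had the smallest p-value, with a difference of 0.81 (SE 0.28, adjusted p = 0.37). It and Rplp0 were the 2 members higher at an unadjusted p under 0.05 (5.08% of all genes). The median was 0.05 with UNC1999 control 1 left out, 0.08 with DZNep replicate 1, 0.09 with UNC1999 replicate 2 and 0.23 with UNC1999 control 3 left out.

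Romidepsin less UNC0642 gave a median of −0.13, with 68 of 78 members below 0 (51.4% of all genes) and 0 at an unadjusted p under 0.05 (6.31% of all genes higher and 6.3% lower). It ranged from −0.33 without Romidepsin replicate 2, where Rpl23a was called, over −0.25 without UNC0642 replicate 1 and −0.22 without Romidepsin control 1, to −0.07 without Romidepsin replicate 3 or UNC0642 control 2, −0.02 without Romidepsin control 3 or UNC0642 replicate 2, and 0.0005 without Romidepsin replicate 1. Romidepsin less DZNep had a median of 0.16, with 75 of 78 above 0 (47.3% of all genes) and 1 at an unadjusted p under 0.05 (6.54% of all genes higher), Rps27a (0.74, SE 0.26, adjusted p = 0.20). Without Romidepsin replicate 2 this median was −0.03 and without Romidepsin control 1 it was 0.08, and it was 0.29 without Romidepsin control 3 and 0.28 without Romidepsin replicate 1.

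Control retinas differed among themselves in these genes. The 2 controls of the UNC0642 experiment, set against the 7 other controls of library series G-981, had higher means in 78 of 78 members (52.2% of all genes; median 0.27), and 13 were called higher and 0 lower, beside 8.86% and 4.72% of all 16915 genes. Both lay above all 7 others for 14 members (13.3% of all genes). Rps2 measured 104 and 87.8 CPM against 49.5 to 74.5 CPM (0.71, SE 0.14, adjusted p = 0.010), Rpl27a 162 and 145 CPM against 108 to 133 CPM (0.41, adjusted p = 0.012), and Rpl22l1 26.1 and 24.3 CPM against 16.9 to 20.8 CPM (0.44, adjusted p = 0.011). No value of these 3 genes was shared between the groups.

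Against all 9 controls of the series, these 2 included, the UNC0642 effect on the members had a median of 0.60. In that fit 73 members were called higher, and the share of all genes called is not given here. The 13 calls between controls became 0 without UNC0642 control 1, 2 without UNC0642 control 2, 5 without Romidepsin control 1, 63 without Romidepsin control 3, and 7, 6, 4 and 5 without DZNep controls 1 to 4. How many of all genes were called in these fits is not given here. With offsets for length and GC content the median between controls was 0.13. All 8 rod markers were called lower in the UNC0642 controls (median −1.17), and experiment and these differences cannot be told apart.

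**Figure D5:**
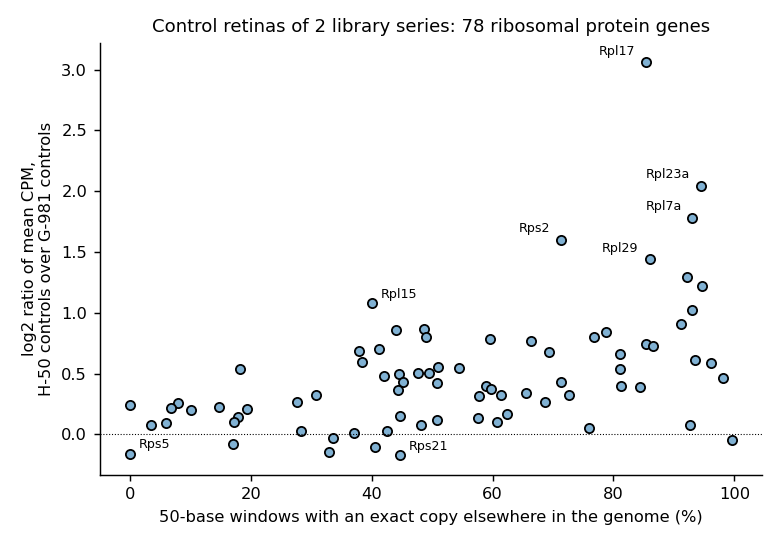
Level of each of the 78 members in the 3 controls of library series H-50 over the 9 controls of series G-981 (log2), against the percentage of its transcript found exactly elsewhere in the genome. Members with 50% or more copied lie at a median of 0.55 and those below at 0.23, and Rpl17 is highest at 3.06.

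The 2 library series also differed in these genes. In the 3 controls of series H-50 (the UNC1999 experiment) 71 of 78 members were higher than in the 9 controls of series G-981 (47.3% of all 17274 genes), and 32 lay above all of these (10.7% of all genes), with a median log2 ratio of 0.40. Rpl17 stood out with 137 CPM against 16.4 CPM, 8.34-fold, and Rpl23a with 147 CPM against 35.6 CPM, 4.13-fold. Rpl7a (3.44-fold), Rps2 (3.04-fold) and Rpl29 (2.72-fold) followed, and all 5 genes were named after their values were seen.

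Copied sequence differs widely between members. Of the windows of 50 bases in a member's transcript a median of 50.7% occurred elsewhere in the genome, against 0% for mitochondrial ribosomal proteins and 0.44% for oxidative phosphorylation, and in Rpl23a the value was 94.5%, in Rpl17 85.4%. Members with 50% or more copied (41) had a median series ratio of 0.55 and those below (37) 0.23, with Spearman's rho of 0.52 over 78 genes that share their libraries. Among the 19 members with 80% or more copied rho was 0, and Rps27 (99.7% copied, log2 ratio −0.05) and Rpl36a (92.6%, 0.08), the latter named after its value was seen, lay near 0. How reads with several positions were counted is not stated in the sources used here, and series and experiment cannot be told apart.

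Within experiments, members with little and much copied sequence had similar medians in the main fits. Members under and over 50% had medians of 0.42 and 0.39 after UNC0642, 0.29 and 0.27 after Romidepsin, 0.08 and 0.06 after DZNep, −0.04 and −0.03 after UNC1999, and −0.53 and −0.53 in rods. Spearman's rho of members' fold changes with copies was 0.06 after UNC0642 and −0.01 after Romidepsin. With offsets for length and GC content it was −0.38 and −0.15. After DZNep, UNC1999 and in rods it was −0.13, −0.07 and −0.15, and with these offsets −0.14, −0.03 and 0.04. The part of copies in the fold changes was not tested.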

How the data were processed

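Per the labels and the methods of the study, the authors trimmed reads with BBDuk, aligned them to NCBIM37 (mm9) with HISAT2 2.2.1 and took counts per Ensembl gene from HTSeq 0.11.2. The deposited values are raw counts of 37991 genes in 26 libraries, all used here. Strand setting and treatment of multiple positions are not given in the sources used here. Libraries were grouped by their titles; the treatment labels of 2 UNC1999 libraries and a running number in the genotype labels were disregarded.

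Counts were filtered with filterByExpr, scaled by TMM and tested with the quasi-likelihood test of edgeR 4.0.16 (R 4.3.3). CPM carry the TMM factors of their experiment, except for values across experiments, which carry those of all 22 retinas. The 23 pairs of replicates were checked and none was a copy (chi-square per gene at least 3.89). Alternatives were the likelihood ratio test of the authors, DESeq2 1.42.0, RLE scaling, other filters, offsets (splines with 5 terms), a replicate block, pooled controls and leaving out each library. The tests were tested on simulated data. Symbols, positions and lengths came from GENCODE M1 on NCBIM37, starts from RefSeq.

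Members, lists and alternatives were chosen with earlier results of these data known. Genes named are the 5 members of smallest p called in each direction, P-stalk genes, Rpl5, Rpl11, Rps6, Rps19, Rps27a, the paralog pairs, the 3 most and least abundant per kilobase and up to 2 called genes of a related list in each direction. Others are said to be named after their values were seen, except members named because an alternative fit called them. The list of ribosome components outside the naming pattern is not reported here as a whole.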

Additional observations from a re-analysis of the deposited data

Results flagged for a closer look

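Of 19 values in groups of 4 retinas that were examined for a library far from the rest, 1 stood apart. Rpl22 measured 94.2 CPM in DZNep control 1, on the scale of all 22 retinas, and 87.87, 88.06 and 88.88 CPM in the other 3 controls. The gap to the nearest control was 0.841 of the whole range, above Dixon's critical value of 0.829 for 4 libraries. Chance sets apart about 1 in 20 such groups. On the same scale the 2 DZNep retinas measured 102 and 101 CPM, above all 4 controls.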

How the results depend on the processing

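Counts of members called and medians changed as follows. DZNep: 20 members called became 5 with the replicate block, 1 with all 22 retinas in one fit, 1 with the 9 control retinas of series G-981 (median −0.073, Rps19 turning to −0.013), 0 with the fold threshold, and 4 to 24 with libraries left out. UNC1999: 0 became 1 by the likelihood ratio test, 1 by DESeq2, 1 with offsets for length and GC content and 0 to 15 with libraries left out. UNC0642: 0 became 16 by the likelihood ratio test, 44 by DESeq2, 63 without a filter, 45 with the replicate block, 73 with the 9 controls and 0 to 1 with libraries left out, and the median of 0.41 became 0.245 with both offsets, 0.262 with the length offset, 0.605 with the 9 controls and 0.278 to 0.525 with libraries left out. Romidepsin: 0 became 1 by DESeq2, 5 with either offset, 10 in the fit of 22 retinas and 14 with the 9 controls. Rods: the median of −0.53 became −0.306 with both offsets, −0.309 with the length offset and −0.706 to −0.285 with libraries left out. Between treatments the medians with libraries left out ran from −0.327 to 0.0004674 (Romidepsin less UNC0642, 0 to 1 called), from 0.049 to 0.227 (DZNep less UNC1999) and from −0.031 to 0.293 (Romidepsin less DZNep). Between controls 13 became 20 by the likelihood ratio test, 22 by DESeq2 and 0 to 63 with libraries left out, with a median of 0.134 with both offsets. The share of all genes called under each alternative is not given here, and the cause of these changes was not tested. Same-numbered control and treated libraries share only a number (correlations of their deviations from −0.351 to 0.268), and the replicate block changed no other count of calls by over 1.5 times. Of single named members, 2266 values of alternatives kept direction and side of the threshold, 141 had the other sign without being called in either fit, 60 gained and 86 lost the call, and 1 was called in one of the fits and changed sign. How far depth, the number of libraries or reads shared with copies limited the calls was not tested.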
